A study of Homo sapiens with 26 samples.

Results

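MKI67 encodes Ki-67, a protein that coats mitotic chromosomes and is made by cycling cells, and its level differed among single cell-derived cell lines (SCDCLs) of pancreatic cancer. The libraries described here were the 14 of 26 in the series with SMAD4 (ENSG00000141646) at 1 TPM (transcript abundance scaled for length and depth) or more. They were ranked by the TPM of MKI67 (ENSG00000148773), and the 5 highest, called MKI67-high, were compared with the 5 lowest, called MKI67-low, over all other genes. The 4 libraries between them did not enter this comparison. They entered the scaling of levels, the rank correlations, and the fits over all 14 libraries, with 7 libraries a side or within a label. Because measured MKI67 set the groups, its own difference is a description with no test, and the groups are not groups of the study.

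The study cultured clones grown from single cells of the pancreatic ductal adenocarcinoma lines BxPC3, called classical-like, and Panc-1, called basal-like, and sequenced polyA RNA once from each clone to relate their profiles to gemcitabine response. Each library is therefore 1 clone, the n of each group counts clones, and p-values measure the spread between clones that were each sequenced once. All clones grew in DMEM high glucose with fetal bovine serum, and the labels give gemcitabine as the treatment of every library, although the study's methods describe the drug only for viability assays. The response of each clone to gemcitabine is not in the labels and was not analysed here.

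The MKI67-high group held libraries 22, 23 and 20, labelled BxPC3, and libraries 10 and 8, labelled Panc-1. The MKI67-low group held library 17, labelled BxPC3, and libraries 11, 13, 9 and 14, labelled Panc-1. The label was therefore unevenly divided between the groups, 3 and 2 against 1 and 4, and values within each label are given where they bear on a list or gene. BxPC3 is known to have lost SMAD4, yet 7 of the 14 SMAD4-expressing libraries were labelled BxPC3, so libraries are called "labelled" BxPC3 or Panc-1 throughout. All 14 showed SMAD4 of 28.1 to 52.2 TPM, VIM of 3047 to 4527 TPM and CDH1 of 0.338 to 7.74 TPM, the marker pattern of Panc-1 cells, and CDKN2A, which both lines lack, was at 0 in all 14. SMAD4 itself was higher on average in the MKI67-high libraries, 38.11 ± 8.92 TPM (SD, n = 5) against 31.96 ± 5.61 TPM (SD, n = 5), with overlapping values.

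Totals of the 14 libraries were 27035700 to 32601400 estimated counts, and 15976 to 16661 genes had at least 5 counts. The share of mitochondrially encoded transcripts was 1.02 to 1.79% in the MKI67-high and 0.393 to 1.82% in the MKI67-low libraries, the lowest value belonging to library 9. MKI67 was set against 6 such measures over the 14 libraries (the total, genes detected, mitochondrial share, ribosomal protein share, the share of the 50 largest genes, and SMAD4), and none reached an adjusted p under 0.05 in two-sided permutation tests. The share of the 50 largest genes came nearest, with Pearson's r of -0.53 (permutation p = 0.051, adjusted p = 0.306) and Spearman's rho of -0.51 (permutation p = 0.067, adjusted p = 0.400), and r was -0.39 without the 2 libraries farthest from the median of MKI67. Within labels its rho was -0.75 over the 7 libraries labelled BxPC3 and -0.61 over the 7 labelled Panc-1. Of 8 markers of leukocytes, endothelium and fibroblasts, PTPRC, CD3E, VWF, DCN and LUM stayed under 0.351 TPM in all 14 libraries, whereas PECAM1 was at 0.321 to 5.38 TPM, PDGFRB at 0.335 to 3.47 TPM and CD68 at 42.5 to 141 TPM. The summed level of the 8 markers was 46.8 to 150.1 TPM in the MKI67-high and 51.9 to 73.6 TPM in the MKI67-low libraries.

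The cell cycle runs through G1, DNA synthesis in S phase, G2 and mitosis, and each phase has its own transcripts. Genes of G1/S and S phase are switched on through E2F factors once RB is phosphorylated by cyclin-dependent kinases. Genes of G2 and mitosis, MKI67 among them, are repressed in resting cells by the DREAM complex and activated late by B-MYB and FOXM1, through promoter elements known as the cell cycle genes homology region (CHR) and CCAAT boxes bound by NF-Y. A culture with a higher share of cycling cells and a culture with more transcript per cycling cell cannot be told apart in bulk RNA.

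The 250 bases before the transcription start of MKI67 and of the 4 listed cell cycle genes whose levels ranked most like MKI67 are shown because these genes moved together across the clones. They come from RefSeq (GRCh38.p14) and are written 5′ to 3′ on the gene's own strand, with 4 motifs in capitals wherever they occur on either strand. The motifs are the CCAAT box, which reads as ATTGG from the other strand, the CHR core TTTGAA, which reads as TTCAAA, and a pair of E2F sites, TTCCCGCC and TTTGGCGC, which read as GGCGGGAA and as GCGCCAAA.
MKI67: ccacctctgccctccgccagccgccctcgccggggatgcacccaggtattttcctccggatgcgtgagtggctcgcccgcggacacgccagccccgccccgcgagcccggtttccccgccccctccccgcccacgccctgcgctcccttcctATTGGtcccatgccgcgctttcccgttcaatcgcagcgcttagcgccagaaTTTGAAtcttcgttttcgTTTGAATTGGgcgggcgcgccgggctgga
KIFC1: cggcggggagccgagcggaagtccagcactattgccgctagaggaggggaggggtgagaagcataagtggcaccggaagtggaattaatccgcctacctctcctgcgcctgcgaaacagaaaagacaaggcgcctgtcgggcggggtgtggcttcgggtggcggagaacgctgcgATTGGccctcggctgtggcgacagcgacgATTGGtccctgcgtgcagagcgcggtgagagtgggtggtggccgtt
SMC4: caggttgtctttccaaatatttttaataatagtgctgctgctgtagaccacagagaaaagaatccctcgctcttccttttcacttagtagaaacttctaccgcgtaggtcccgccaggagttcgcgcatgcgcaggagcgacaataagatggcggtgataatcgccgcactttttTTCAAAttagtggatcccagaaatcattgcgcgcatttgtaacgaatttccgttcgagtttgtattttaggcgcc
KIF20B: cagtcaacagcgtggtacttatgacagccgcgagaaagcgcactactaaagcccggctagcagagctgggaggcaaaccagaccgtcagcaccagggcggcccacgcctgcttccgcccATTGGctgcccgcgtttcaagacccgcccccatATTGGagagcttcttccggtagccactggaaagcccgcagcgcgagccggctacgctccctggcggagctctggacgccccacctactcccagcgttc
KIF14: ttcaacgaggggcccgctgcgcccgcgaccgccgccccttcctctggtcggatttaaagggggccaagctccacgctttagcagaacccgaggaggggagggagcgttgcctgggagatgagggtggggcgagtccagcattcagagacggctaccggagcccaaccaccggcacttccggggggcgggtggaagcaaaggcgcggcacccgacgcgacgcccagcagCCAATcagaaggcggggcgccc
The MKI67 stretch lies at chr10:128126424-128126673 on the minus strand and holds CCAAT in reverse and TTTGAA at 2 places each, the pair nearest the start overlapping by 1 base. KIFC1 (chr6:33391573-33391822 on the plus strand) and KIF20B (chr10:89701340-89701589 on the plus strand) hold 2 reversed CCAAT boxes each. KIF14 (chr1:200620752-200621001 on the minus strand) holds 1 forward CCAAT box, and SMC4 (chr3:160399400-160399649 on the plus strand) holds only 1 reversed CHR core.

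These letters were common before the starts of mitotic genes. Of the promoters of the 125 tested genes on the list of mitosis, spindle and kinetochore genes, 106 were in the RefSeq table, and 67.0% of them held CCAAT, 38.7% TTTGAA and 34.0% both. Among the 10762 tested genes with a promoter in the table, the shares were 34.8%, 8.25% and 3.33%. CCAAT was not particular to the mitotic list. It was in 85.7% of 21 replication-dependent histone promoters, 56.7% of 30 on the DNA damage response list and 54.2% of 48 on the DNA replication list. For DNA replication and S phase, 27.1% of 48 promoters held 1 of the 2 E2F sites, against 5.39% of all 10762. A match is a description of the letters, not of a bound site.

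MKI67 was 72.2 ± 11.2 TPM (SD, n = 5) in the MKI67-high and 36.5 ± 6.57 TPM (SD, n = 5) in the MKI67-low clones, a ratio of the means of 1.98. The 5 high libraries (22, 23, 20, 10 and 8, the order used for every list of values below) gave 84.0, 80.2, 76.1, 62.1 and 58.7 TPM. The 5 low libraries (17, 11, 13, 9 and 14, likewise) gave 43.7, 42.5, 34.8, 33.4 and 28.0 TPM. The ranking had no wide gap at its thresholds, since library 15, just outside the high group, was at 55.8 TPM and library 19, just outside the low group, at 47.0 TPM. On the CPM scale (counts scaled to library size with TMM factors) libraries 17 and 19, at 370.1 and 365 CPM, and libraries 9 and 13, at 301 and 272 CPM, exchanged places in the ranking. The 12 SMAD4-null libraries ranged from 19.5 to 65.7 TPM.

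**Figure D1:**
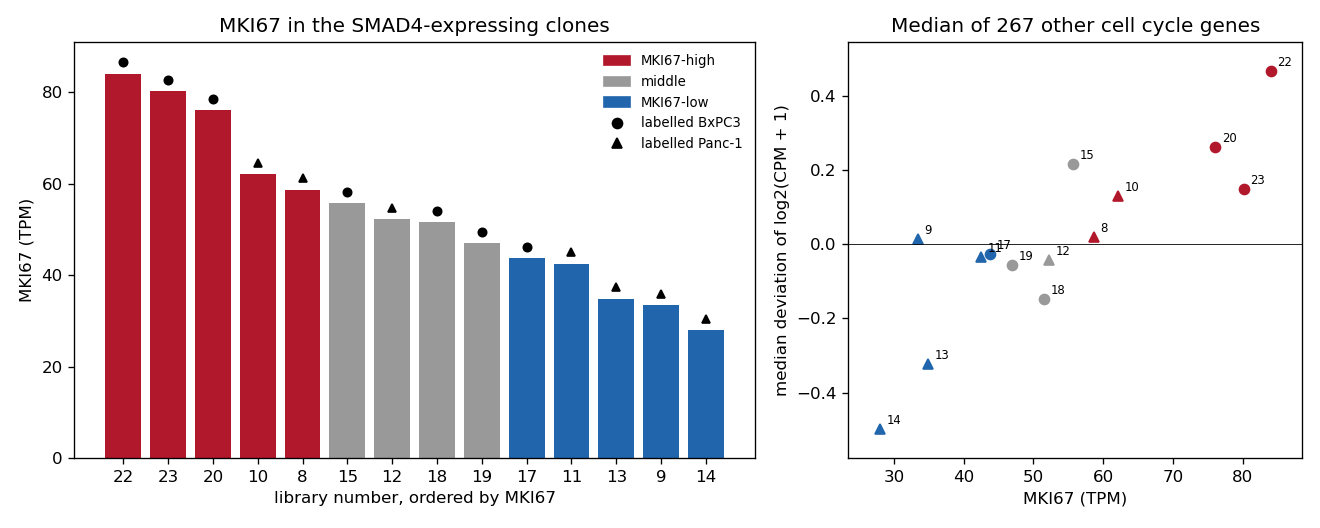
The left panel plots MKI67 in TPM for each of the 14 SMAD4-expressing libraries, and the right panel plots against it each library's median, over 267 cell cycle genes other than MKI67, of the deviation of log2(CPM + 1) from the gene's mean over the 14 libraries. Red, gray and blue are the MKI67-high, middle and MKI67-low libraries, and circles and triangles are those labelled BxPC3 and Panc-1. The cell cycle medians run from 0.02 to 0.47 in the high and from -0.50 to 0.02 in the low libraries, with the lowest in library 14.

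Most of the cell cycle was higher in the MKI67-high clones. Over 5 lists of cell cycle genes, 247 of the 267 tested members had a higher fitted level in the MKI67-high libraries, where 49.0% of all 15312 genes tested did, and their median log2 difference was 0.39 against -0.01 for all genes. In 26 of the 267 every high library lay above every low one, and in none every one below, where 0.718% of all genes separated upward and 0.529% downward. Spearman's rho with MKI67 over the 14 libraries was 0.5 or more in 186 of the 267 and -0.5 or less in none, against 7.26% and 7.11% of all genes. Since MKI67 belongs to the same program, these values describe the ranking and no test is read from them. Within labels, the fitted level went up with MKI67 for 243 of 269 cell cycle genes over the 7 libraries labelled BxPC3 and for 237 of 265 over the 7 labelled Panc-1.

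Of the mitotic genes 122 of 125 were higher, with a median log2 difference of 0.46, a factor of 1.38. SMC4, the core ATPase of condensin (ENSG00000113810, chr3:160399274-160434954, plus strand), was at 389.6, 385, 390.2, 377 and 304 CPM in the high libraries and at 255, 242, 214, 262 and 219 CPM in the low ones. No value of 1 group reached the other, and the means differed 1.55-fold (log2 0.63 ± 0.11, SE, n = 5 and 5). KIFC1, a minus-end directed kinesin, was at 153, 168, 144, 127 and 121 CPM against 107, 107, 97.6, 97.6 and 71.2 CPM. Its rho with MKI67 over 14 libraries, 0.95, was the highest of all genes averaging 10 CPM or more. KIF20B and KIF14, kinesins of cytokinesis, were 1.53-fold and 1.52-fold higher, with rho of 0.92 and 0.92. Both also separated the groups completely, KIF20B at 93.6 to 125 against 56.00 to 86.8 CPM and KIF14 at 77.3 to 116 against 51.6 to 74.3 CPM. PRC1, which bundles the central spindle, KIF11, the kinesin that keeps spindle poles apart, and TOP2A, which untangles sister chromatids, separated too, at 1.32-fold, 1.66-fold and 1.52-fold.

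The values of the classical regulators of mitotic entry and exit overlapped between the groups. PLK1, a kinase of mitotic entry, was at 167 ± 30.2 CPM (SD, n = 5) against 110.4 ± 33.5 CPM, 1.51-fold, and AURKA, the centrosome kinase, at 159.7 ± 27.1 against 121 ± 27.4 CPM, 1.32-fold. CCNB1 and CDK1, which together form the mitotic kinase, were 1.32-fold and 1.34-fold higher, and CDC20, the activator of the anaphase-promoting complex, 1.23-fold. In these 5 genes libraries 13 and 14 gave the lowest values of the low group, for example 79.2 and 73.2 CPM of PLK1, whereas library 9 was at 128 CPM. The largest log2 differences on the list among genes averaging 10 CPM or more belonged to HMMR, a spindle assembly factor (0.83 ± 0.32, SE), NDC80, a kinetochore subunit (0.79 ± 0.28), and CDCA2, which brings protein phosphatase 1 to anaphase chromatin (0.76 ± 0.22). HMMR and NDC80 were highest in library 22, at 226 and 146 CPM, and overlapped between the groups. So did CDCA2, narrowly, at 20.7 to 33.3 against 9.65 to 20.9 CPM.

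S phase genes were higher too. Of the DNA replication list 56 of 57 were higher, with a median log2 difference of 0.32, and of the G1/S list 24 of 26, with 0.33. The order of the lists was not the same in the 2 labels. Per doubling of MKI67 over the 7 libraries of a label, the median was 0.51 in the BxPC3-labelled and 0.54 in the Panc-1-labelled libraries for mitosis, 0.51 in the BxPC3-labelled and 0.26 in the Panc-1-labelled libraries for DNA replication and 0.60 in the BxPC3-labelled and 0.28 in the Panc-1-labelled libraries for DNA damage response, and the differences between lists were not tested. MCM10 and MCM4, both of the replicative helicase machinery, were 1.62-fold and 1.54-fold higher, and CLSPN, the fork adaptor of the checkpoint kinase CHEK1, was 1.52-fold higher. MCM10 was at 62.6, 51.00, 46.5, 42.9 and 29.4 CPM in the high and 29.5, 32.9, 28.2, 32.5 and 20.2 CPM in the low libraries, so that library 8 overlapped the low group. E2F8, an E2F family repressor, TYMS, thymidylate synthase, and CDC6, an origin licensing factor, were 1.62-fold, 1.59-fold and 1.502-fold higher. PCNA, the sliding clamp, MCM2 and RRM2, the small subunit of ribonucleotide reductase, were nearer to equal at 1.12-fold, 1.17-fold and 1.21-fold, within the spread between clones. For PCNA the direction rested on library 22, at 243 CPM, and the log2 difference was -0.038 without it. E2F1 was 1.26-fold higher and CCNE2, cyclin E2, 1.32-fold, both with overlap.

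All 39 tested genes of the list on DNA damage response and recombination were higher, with a median log2 difference of 0.39. MSH6 of mismatch repair, RAD51AP1 of homologous recombination and CHEK2 of the checkpoint were 1.51-fold, 1.504-fold and 1.498-fold higher, and only RAD51AP1 of the 3 separated the groups, at 21.3 to 29.1 against 12.2 to 19.03 CPM. The replication-dependent histones went apart from the other lists. These transcripts lack polyA tails, and 21 of 49 passed the filter on low counts in this polyA RNA. Of the 21, 7 were higher and the median log2 difference was -0.15. H2AC6 and H2BC5 were at 11.1 ± 3.36 and 12.5 ± 3.77 CPM in the high against 14.9 ± 3.19 and 16.6 ± 2.56 CPM in the low libraries (SD, n = 5 each). H1-2, a linker histone, was at 19.1 ± 5.52 against 16.4 ± 5.38 CPM. The histone median was -0.02 with 21 of 46 higher when the filter was left out, -0.03 with 7 libraries a side and -0.05 without library 13.

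**Figure D2:**
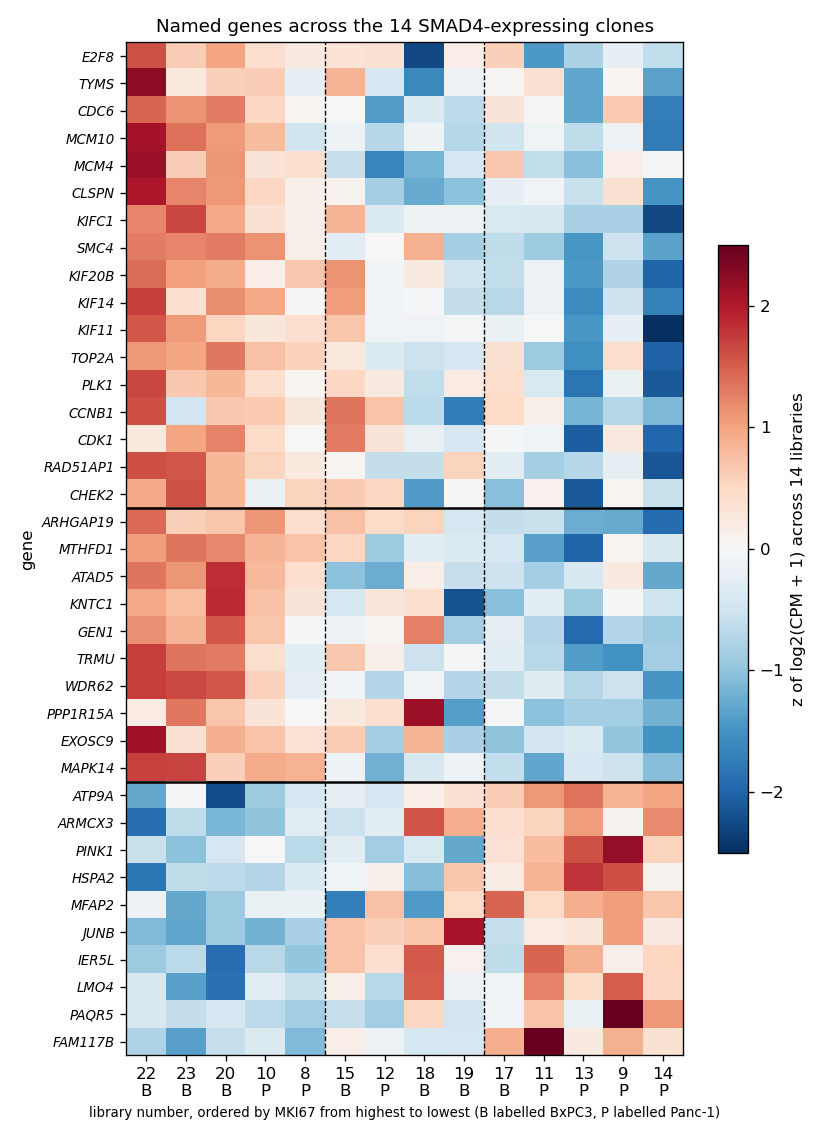
The heat map shows z-scores of log2(CPM + 1) across the 14 libraries for 17 cell cycle genes (top block) and for the 10 higher and 10 lower genes named outside the cell cycle lists (middle and bottom blocks). Columns run from the highest MKI67, library 22, to the lowest, library 14, and dashed lines mark the MKI67-high, middle and MKI67-low libraries. The top block fades from red to blue in that order, with library 13 and library 14 the darkest blue, while the bottom block runs the opposite way.

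Outside the cell cycle no gene reached an adjusted p under 0.05 in edgeR's quasi-likelihood test. None of 15045 genes did (0% called), with 1025 at an unadjusted p under 0.05, and over all 15312 genes the smallest adjusted p was 0.372. Without adjustment 7.63% of all genes were under 0.05, 3.42% higher and 4.21% lower in the MKI67-high libraries. DESeq2 on the same libraries called 64 genes, 56 of them outside the cell cycle lists, of which 46 were lower and 10 higher, and limma called 0 with 1211 at an unadjusted p under 0.05. A fit of edgeR on continuous MKI67 over the 14 libraries called 52 genes, 37 in the cell cycle lists and 15 outside, and shared 13 with DESeq2. With the label as a term edgeR called 0, and 484 genes were at an unadjusted p under 0.05.

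The genes named next met 3 conditions, which were no overlap between the groups, a mean of at least 10 CPM in the higher group, and a rho with MKI67 of at least 0.5 in size in the same direction. Of the 15045 genes outside the cell cycle lists, 84 higher and 81 lower genes did not overlap between the groups. Over all 15312 genes tested, 0.718% separated upward and 0.529% downward. All 3 conditions were met by 67 higher and 46 lower genes, and the 10 with the smallest unadjusted p in each direction are named. They were selected from the contrast and none passed the adjusted test in edgeR, so their values describe these clones. All 20 kept their direction within the 7 libraries of each label and with the label as a term. DESeq2 called all 10 of the lower and 6 of the 10 higher genes. All of these fits used libraries from which the genes had been picked, so they are not separate evidence.

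Among the higher genes, several have roles in division although the lists did not hold them. ARHGAP19, a GTPase activating protein (chr10:97222173-97292673, minus strand), was at 66.04, 56.4, 57.5, 62.2 and 54.8 CPM in the high and 45.00, 45.4, 39.7, 39.6 and 34.8 CPM in the low libraries (log2 0.54 ± 0.11, SE; edgeR's adjusted p = 0.449). ATAD5, which unloads PCNA from DNA, KNTC1, a kinetochore protein of the spindle checkpoint, GEN1, a Holliday junction resolvase, and WDR62, a spindle pole protein, were 1.52-fold, 1.46-fold, 1.43-fold and 1.37-fold higher. MTHFD1, the trifunctional enzyme of one-carbon folate metabolism that feeds purine and thymidylate synthesis, showed the largest difference of the 10. It was at 144, 156, 151, 136 and 131 CPM against 95.6, 73.8, 61.5, 109.5 and 96.1 CPM, 1.65-fold (log2 0.72 ± 0.15, SE; edgeR's adjusted p = 0.472). Every high library exceeded every low one, and the 4 middle libraries lay at 83.3 to 124 CPM, which reached into the low range.

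TRMU, which modifies mitochondrial tRNAs, was at 36.7 ± 5.67 CPM against 25.2 ± 2.56 CPM (SD, n = 5 each) with a rho of 0.90. Its high libraries labelled BxPC3 were at 42.8, 39.7 and 39.3 CPM, above library 8 at 28.9 CPM, which barely cleared library 17 at 28.7 CPM. PPP1R15A, the stress-induced subunit that removes phosphate from eIF2α, EXOSC9 of the RNA exosome and MAPK14, the p38α stress kinase, were 1.38-fold, 1.39-fold and 1.25-fold higher. MAPK14 was tight within groups, at 65.5 to 74.6 against 52.7 to 58.3 CPM. Among genes outside the lists averaging 10 CPM or more, RBM17, a splicing factor, had the highest rho, 0.92, and was 1.27-fold higher.

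The lower genes showed larger differences. ATP9A, a phospholipid flippase of endosomes (ENSG00000054793, chr20:51596514-51768390, minus strand), was at 15.2, 31.4, 8.55, 19.1 and 24.8 CPM in the high and 45.8, 59.9, 69.9, 53.2 and 56.4 CPM in the low libraries. The groups were well apart, the log2 difference was -1.53 ± 0.29 (SE; edgeR's adjusted p = 0.372), and the middle libraries filled the gap at 25.3 to 39.9 CPM. ATP9A was the 1 gene of the 10 lower ones that the fit on continuous MKI67 also called, with an adjusted p of 0.0374 in edgeR.

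ARMCX3 and PINK1 both act at mitochondria, ARMCX3 in their transport and PINK1 as the kinase that marks damaged ones for removal. ARMCX3 was at 8.78, 17.1, 13.1, 14.03 and 20.8 CPM against 29.3, 31.5, 40.5, 24.99 and 43.4 CPM (log2 -1.21 ± 0.23, SE), and PINK1 at 52.03, 43.1, 54.6, 64.3 and 49.6 CPM against 73.8, 86.3, 118, 149 and 79.6 CPM (log2 -0.94 ± 0.20, SE). PINK1 did not follow MKI67 through the middle of the ranking, since the 4 middle libraries were at 39.1 to 57.8 CPM, like the high ones, and the difference came from the low group, led by libraries 9 and 13. ARMCX3 in the middle libraries spanned 17.9 to 52.8 CPM.

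HSPA2, a heat shock protein of the HSP70 family, MFAP2, a microfibril component, and LMO4, a LIM-only transcriptional cofactor, were at 0.409, 0.610 and 0.586 of their MKI67-low level. JUNB, an AP-1 subunit, was at 34.01, 32.2, 36.1, 33.2 and 36.9 CPM against 39.4, 48.99, 50.5, 62.1 and 49.5 CPM, but its middle libraries exceeded most of the low ones at 54.9 to 82.6 CPM. IER5L was at 10.4 to 21.3 against 21.9 to 70.9 CPM and FAM117B at 3.66 to 5.57 against 7.06 to 17.2 CPM. PAQR5, a membrane progestin receptor, had the largest log2 difference, -3.29 ± 0.78 (SE), which rested on library 9 at 40.1 CPM, since the other 4 low libraries were at 2.13 to 8.33 CPM and the high ones at 0.687 to 1.56 CPM.

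**Figure D3:**
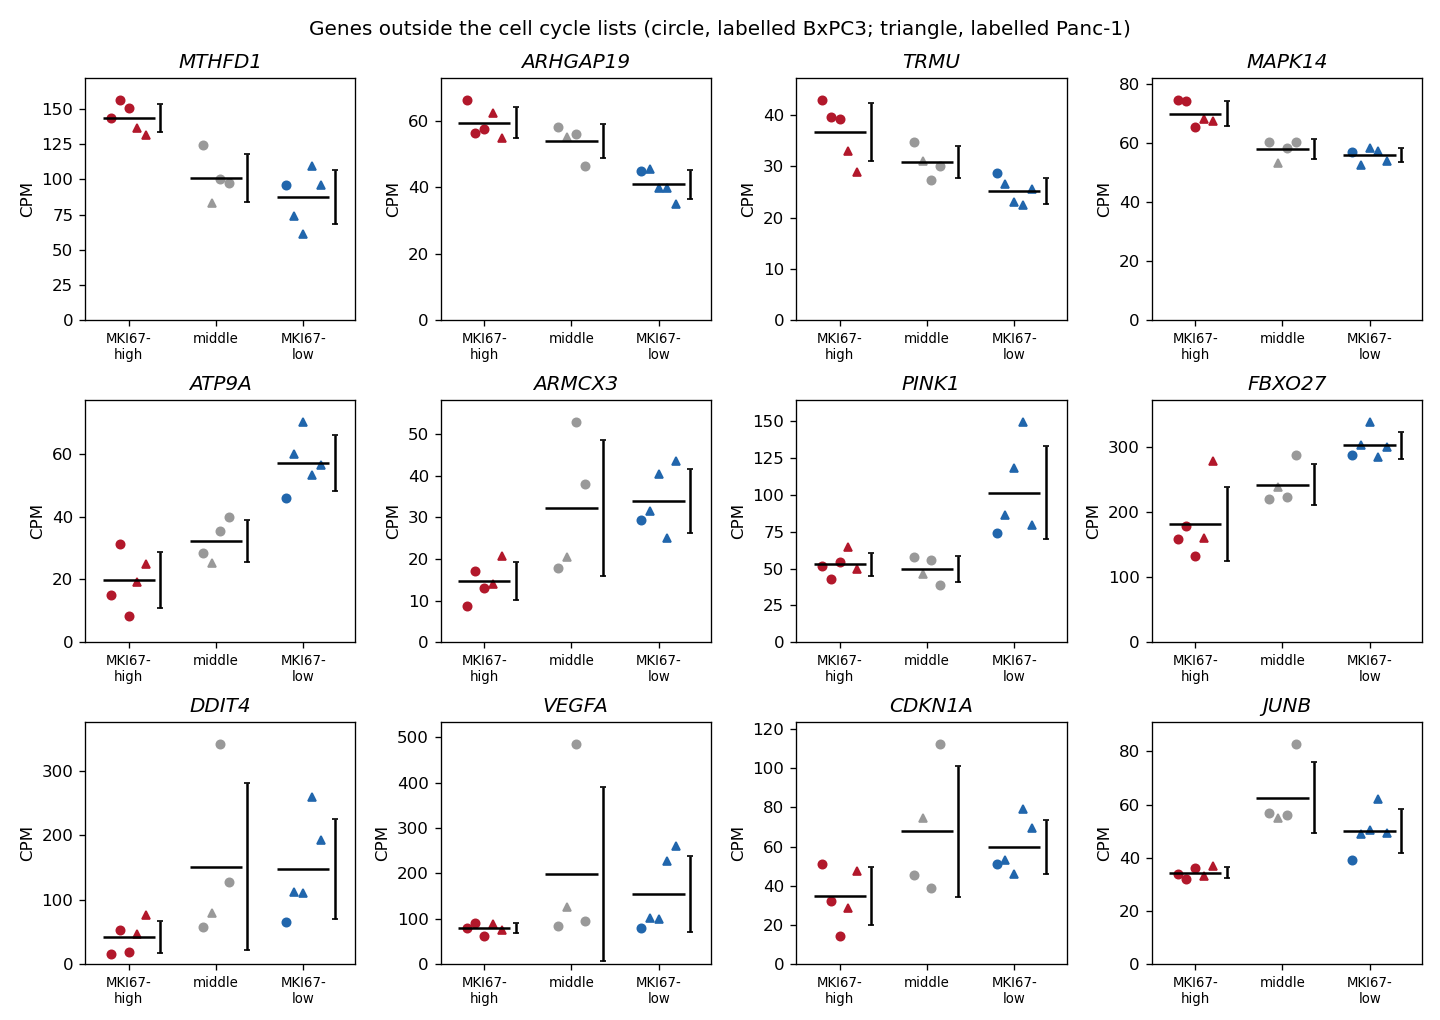
Each panel plots the CPM of 1 gene outside the cell cycle lists in the MKI67-high (red, n = 5), middle (gray, n = 4) and MKI67-low (blue, n = 5) libraries, with the mean as a line and the SD as a bar. Circles are libraries labelled BxPC3 and triangles those labelled Panc-1. MTHFD1, ARHGAP19, TRMU and MAPK14 do not overlap between high and low, nor do ATP9A, ARMCX3, PINK1, FBXO27 and JUNB in the opposite direction, whereas DDIT4, VEGFA and CDKN1A overlap.

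Some chromosomes stood apart in single libraries, and several named genes lie on them. On chromosome 18, 142 of 192 tested genes outside the cell cycle lists were higher in the MKI67-high clones (median log2 difference 0.20), on chromosome 13 165 of 212 (0.17) and on chromosome 22 226 of 358 (0.09), whereas on chromosome 20 268 of 370 were lower (-0.12). In library 20 the chromosome 18 genes (those whose mean reached 5 CPM) lay 0.37 above their mean over the 14 libraries on the log2 scale and those of chromosome 20 lay -0.21 from it. In library 11 chromosome 13 lay at -0.72, and chromosome 22 lay at 0.33 in library 23 and -0.26 in library 13. Chromosome 10, which carries MKI67, had 328 of 552 higher (0.06), and its library values of -0.10 to 0.10 had a rho of 0.63 with MKI67 over the 14 libraries. Chromosome 7 had 438 of 716 lower (-0.06), lay at -0.32 in library 22 and -0.19 in library 17, and had a rho of -0.72, against 0.67 for chromosome 18. Chromosome 5 had 340 of 617 lower (-0.03) and lay at -0.30 in library 23 and -0.40 in library 19. Chromosome 11 had 442 of 796 higher (0.04) and lay at -0.51 in library 18 and -0.19 in library 11. Chromosome 14 lay at -0.23 in library 22 and 0.18 in library 23. Shifts of other chromosomes are not listed. KIF20B, KIF11, CDK1, MCM10, ARHGAP19 and RBM17, all higher, and PDCD4, DDIT4 and SCD, all lower, are on chromosome 10. HMMR, NPM1, HMGCS1 and RPL37 are on chromosome 5, NT5C3A and NYAP1 on chromosome 7, and TYMS, NDC80 and DSG2 on chromosome 18. ATP9A, CTSA, AURKA and PCNA are on chromosome 20, and TRMU and CHEK2 on chromosome 22. E2F8, DDB2, CTSD and TM7SF2 are among the named genes on chromosome 11. The part of these shifts in the differences of these genes was not tested.

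Among genes averaging 10 CPM or more over all 14 libraries, PCMTD1 (-0.92) and FBXO27 (-0.90) had the lowest rhos. They were followed by CAPN12 (-0.89), ATP9A (-0.88), CA5B (-0.87), NYAP1 (-0.87), RFX1 (-0.84), FURIN, CTSA and ITPRIPL2 (each -0.83). These rhos share 10 libraries with the contrast and are not separate evidence. FBXO27, an F-box protein that recognizes glycoproteins, was at 158, 179, 132, 160.3 and 279 CPM against 288, 304, 338, 285 and 300.2 CPM. Only library 8 of the high group came near the low values. FURIN, the proprotein convertase, and CTSA, lysosomal cathepsin A, were at 0.663 and 0.694 of the MKI67-low level, with overlap. CA5B, a mitochondrial carbonic anhydrase, was at 6.70 ± 3.31 against 15.8 ± 3.96 CPM (SD, n = 5 each).

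Inhibitors of the cycle leaned the opposite way from MKI67. Of 26 tested CDK inhibitors and quiescence genes 8 were higher and 18 lower, with a median log2 difference of -0.13, and 6 of the 18 were at an unadjusted p under 0.05, where 4.21% of all genes were lower at that threshold. None passed after adjustment. The median was -0.47 in the BxPC3-labelled and -0.05 in the Panc-1-labelled libraries, and -0.08 without library 10. CDKN1A, the p21 inhibitor, was at 51.2, 32.1, 14.6, 28.8 and 47.5 CPM in the high and 50.9, 53.4, 46.2, 78.9 and 69.4 CPM in the low libraries (log2 -0.78 ± 0.29, SE; edgeR's adjusted p = 0.616), libraries 22 and 8 lying within the low range and library 20 far below it. PDCD4, a translation inhibitor of quiescent cells, was at 9.89 to 11.8 against 8.34 to 32.6 CPM, overlapping only through library 17 at 8.34 CPM. SESN2, a stress-induced inhibitor of mTORC1 held by this list and by that of amino acid stress, was at 0.610 of the MKI67-low level with overlap. CDKN1B, the p27 inhibitor, was within the spread at 38.5 ± 9.69 and 40.7 ± 3.11 CPM (SD, n = 5 each), and so was CCND1, cyclin D1, at 339 ± 38.2 and 378 ± 72.1 CPM.

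The p53 target list held 5 higher and 13 lower of 18 tested, with a median of -0.13, and its members did not move one way. DDB2, of nucleotide excision repair, was higher in every MKI67-high library, by a narrow margin at its nearest pair, with 25.1 ± 5.14 against 17.9 ± 1.67 CPM (SD, n = 5 each), while CDKN1A, which this list also holds, and TP53INP1 were at 0.582 and 0.693 of the MKI67-low level with overlap.

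Ribosome-related genes divided. Of 38 MYC targets and ribosome biogenesis genes 31 were higher with a median log2 difference of 0.12, of which 1 was at an unadjusted p under 0.05, and of 55 cytosolic ribosomal proteins 50 were lower with a median of -0.14, none of them under 0.05. Library 9 had the highest share of ribosomal protein transcripts of the 14, 5.28%, and without library 9 the median of the ribosomal protein genes was -0.02 with 21 of 55 higher. The MYC target median was 0.06 without library 22. ODC1, which makes polyamines, was 1.43-fold higher and NIP7, of the large ribosomal subunit's assembly, 1.26-fold. NPM1, nucleophosmin, was at 2569, 726, 1159, 1664 and 1144 CPM against 1103, 1414, 829.5, 1154 and 819 CPM and overlapped widely. RPL37 and RPS4X were at 0.779 and 0.821 of their MKI67-low level. MYC itself was at 73.9 ± 12.3 and 81.99 ± 3.41 CPM (SD, n = 5 each), within the spread.

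**Figure D4:**
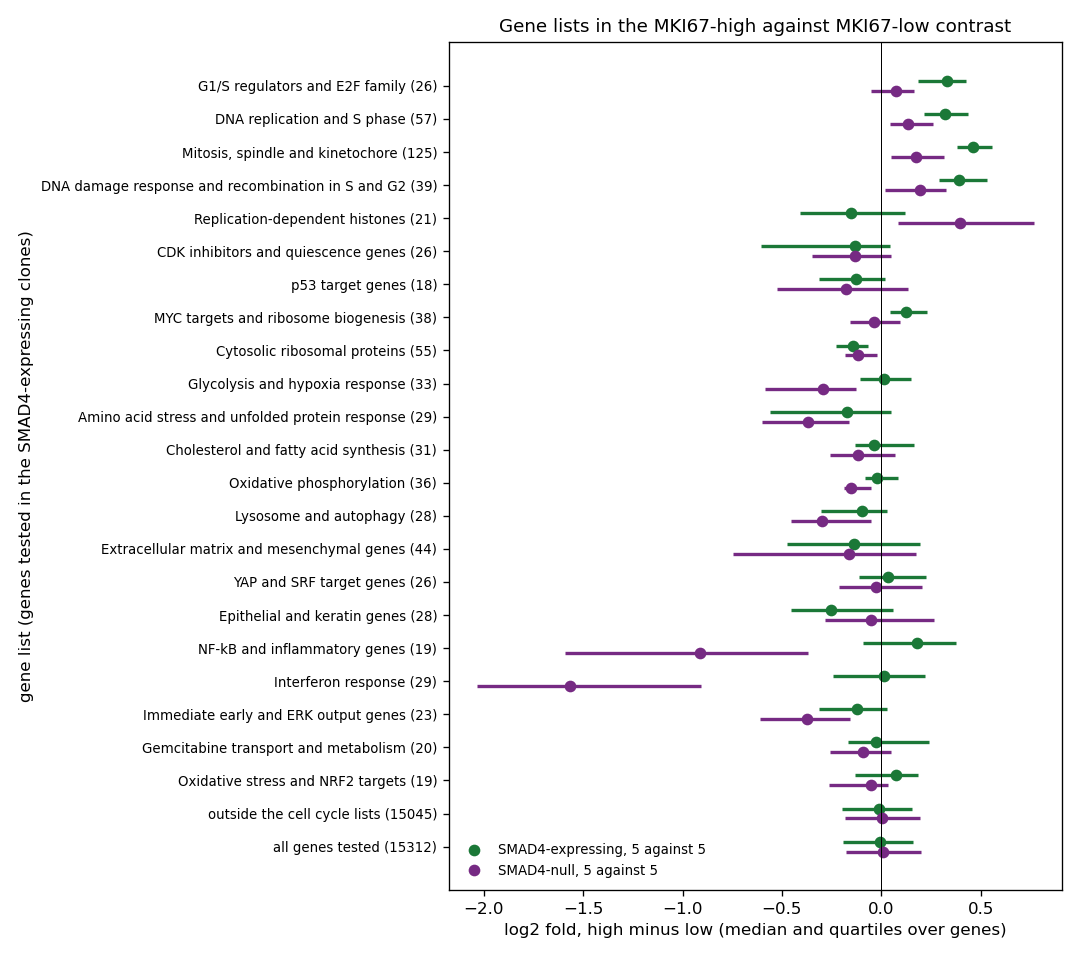
For each gene list the point is the median and the line the quartiles, over its tested genes, of the log2 fold of MKI67-high over MKI67-low libraries, in the SMAD4-expressing clones (green) and in the SMAD4-null clones (purple), 5 against 5 libraries in each. The 4 cell cycle lists at the top other than histones lie to the right in both, from 0.32 to 0.46 in green and from 0.08 to 0.20 in purple. The interferon list is at 0.01 in green and -1.57 in purple.

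Stress and hypoxia genes were lower in some MKI67-high clones without a uniform shift of the lists. DDIT4, a stress-induced inhibitor of mTORC1, was at 15.8, 52.7, 19.1, 46.9 and 76.2 CPM in the high and 65.5, 112, 111, 259 and 193 CPM in the low libraries (log2 -1.81 ± 0.47, SE; edgeR's adjusted p = 0.516), and DESeq2 called it. Library 8 alone of the high group overlapped the low range, and 1 middle library reached 341 CPM. VEGFA, the angiogenic growth factor, was at 79.5, 91.96, 62.6, 89.7 and 76.1 CPM against 79.6, 102, 99.7, 228 and 259.9 CPM, its difference resting on libraries 9 and 14. On the amino acid stress and unfolded protein response list 20 of 29 were lower (median -0.18), but 17 of 29 were higher (median 0.07) without libraries 9 and 14, and the median was -0.03 without library 9 alone. Its largest differences included PHGDH of serine synthesis and CHAC1, which degrades glutathione, at 0.405 and 0.517 of the MKI67-low level. On the glycolysis and hypoxia list 17 were higher and 16 lower (median 0.01, -0.07 in the BxPC3-labelled and 0.11 in the Panc-1-labelled libraries). ANGPTL4, a secreted inhibitor of lipoprotein lipase, was at 54.2 ± 19.1 against 75.3 ± 51.9 CPM, and SLC2A1, the GLUT1 glucose transporter, overlapped at 58.99 to 190.5 and 42.8 to 85.9 CPM.

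The remaining lists had medians between -0.25 and 0.18 and no member past the adjusted test in edgeR, and most of these medians changed with the label or with 1 library. Of the 22 lists, 13 had a median of the same sign pooled and within both labels, and 9 did not. In what follows the values within a label are medians of the log2 change per doubling of MKI67.

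For cholesterol and fatty acid synthesis 13 of 31 were higher (median -0.04), with 6 of 31 higher (median -0.26) in the BxPC3-labelled and 27 of 31 (0.25) in the Panc-1-labelled libraries, and 21 of 31 (0.12) without library 13. SCD, the stearoyl-CoA desaturase, was at 533 to 2666 and 897 to 3929.6 CPM, TM7SF2, a sterol reductase, at 8.78 to 76.7 and 34.2 to 135 CPM, and HMGCS1, which makes HMG-CoA, at 41.04 to 173 and 56.8 to 113 CPM. Library 22 was the lowest of the 10 in these 3 genes. For oxidative phosphorylation 14 of 36 were higher (-0.02), with 15 of 36 in the BxPC3-labelled and 32 of 36 in the Panc-1-labelled libraries, and 25 of 36 without library 23. NDUFV2 of complex I was at 78.6 ± 40.5 against 55.99 ± 19.3 CPM, NDUFB10 of the same complex at 76.6 to 94.03 against 79.7 to 140.1 CPM, and COX7B of cytochrome c oxidase was at 29.1 to 38.08 against 16.1 to 30.8 CPM. For lysosome and autophagy 9 of 28 were higher (-0.10, and -0.01 without library 10), with CTSD, cathepsin D, at 0.665 and NPC1, a cholesterol exporter, at 1.37 times the MKI67-low level. Of oxidative stress and NRF2 targets 12 of 19 were higher (0.08, and 9 of 19 without library 14), with TXNRD1, thioredoxin reductase, and GCLC, of glutathione synthesis, 1.34-fold and 1.32-fold. FTH1, the ferritin heavy chain, was at 602 to 2069.8 and 462 to 4739 CPM, the highest value in library 9, without which its log2 difference was 0.18.

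Of extracellular matrix and mesenchymal genes 19 of 44 were higher (-0.14), with 22 of 44 in the BxPC3-labelled and 11 of 45 in the Panc-1-labelled libraries, and 23 of 44 without library 9. SPARC, a matrix glycoprotein, rested on library 11 at 476 CPM, and COL12A1, a fibril-associated collagen, on library 23 at 70.2 CPM. Of YAP and SRF target genes 14 of 26 were higher (0.03, -0.11 in the BxPC3-labelled and 0.17 in the Panc-1-labelled libraries, and -0.02 without library 20). CCN2, a matricellular YAP target, was at 203 ± 75.6 and 275 ± 141 CPM (SD, n = 5 each). FHL1, a LIM domain protein of muscle, ranged from 0.379 to 166 and from 2.87 to 78.2 CPM, and F3, tissue factor, from 0.246 to 17.8 and from 7.08 to 39.6 CPM. Of epithelial and keratin genes 10 of 28 were higher (-0.25, and -0.08 without library 17), with JUP, plakoglobin, and KRT19, keratin 19, at 0.612 and 0.647 of the MKI67-low level. Log2 differences on that list ran from -1.30 to 0.81. DSG2, a desmosomal cadherin, had the largest difference among its genes averaging 10 CPM or more over the 10 libraries, and lay the other way. It was at 39.4, 33.9, 59.6, 24.4 and 11.4 CPM against 30.8, 6.44, 19.9, 26.6 and 12.7 CPM, 1.75-fold with overlap.

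Of NF-kB and inflammatory genes 13 of 19 were higher (0.18), but 7 of 19 (median -0.08) without library 22, 5 of 19 (-0.28) in the Panc-1-labelled libraries and 9 of 19 (-0.02) with the libraries ranked by MKI67 CPM. TNFAIP3, the A20 inhibitor, was 1.57-fold higher, at 11.1 to 21.7 against 7.39 to 18.5 CPM. PTX3, a secreted pentraxin, was at 0.542 to 43.97 against 3.58 to 18.7 CPM and CCL2, a monocyte chemokine, at 0.933 to 103 against 3.62 to 47.9 CPM. The CCL2 difference rested on library 22, and was -0.69 on the log2 scale without it. Of interferon response genes 15 of 29 were higher (0.01, 0.20 in the BxPC3-labelled and -0.14 in the Panc-1-labelled libraries, and -0.13 without library 20), with TAP1, the antigen peptide transporter, at 16.4 to 57.9 and 12.2 to 29.96 CPM, IFITM1 at 8.29 to 48.8 and 17.9 to 109.8 CPM and IFIT1 at 15.2 ± 9.63 and 11.5 ± 4.02 CPM (SD, n = 5 each). Of immediate early and ERK output genes 7 of 23 were higher (-0.12), and 12 of 23 (0.02) without library 13. SPRY4, a feedback inhibitor of ERK, was at 0.709 of the MKI67-low level, and EGR1, an immediate early factor, was at 4.58 to 21.05 and 0.948 to 39.1 CPM, the highest value in library 13.

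BRD2 and BRD3, readers of acetylated histones, differed by less than the SD of the MKI67-high group. BRD2 was at 119 ± 10.03 and 111 ± 4.51 CPM and BRD3 at 29.2 ± 5.43 and 26.2 ± 3.58 CPM (SD, n = 5 each). HMGN5, a nucleosome-binding protein, was at 1.76 to 3.94 and 1.65 to 4.26 CPM, and TNFRSF6B, a decoy receptor, did not pass the filter, with at most 1.26 TPM in the 14 libraries.

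Genes of gemcitabine transport and metabolism were evenly divided, 10 higher and 10 lower of 20 (median -0.03, 0.05 in the BxPC3-labelled and 0.09 in the Panc-1-labelled libraries). RRM1, the large ribonucleotide reductase subunit that gemcitabine inhibits, was 1.40-fold higher, at 296, 208, 239.5, 215 and 216 CPM against 205, 169, 141, 219 and 103 CPM, and NT5C3A, a pyrimidine nucleotidase, 1.83-fold, at 11.2 to 22.3 against 3.29 to 15.1 CPM. Neither passed the adjusted test (edgeR's adjusted p = 0.616 and 0.628).

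The same contrast in the SMAD4-null clones, 5 highest against 5 lowest by MKI67 among 12 libraries that share no sample with the above, was used to ask whether the differences were particular to the SMAD4-expressing clones. Both labels occurred here too, with 5 of the 12 libraries labelled BxPC3 and 7 labelled Panc-1. Their high group held 2 labelled BxPC3 and 3 labelled Panc-1, and their low group 3 and 2. In the SMAD4-null clones the cell cycle lists were higher as well, 224 of 272 tested (all genes, 51.3%), with a median log2 difference of 0.17 against 0.39. The replication-dependent histones differed in direction, with 22 of 26 higher (median 0.40) in the SMAD4-null clones against 7 of 21 (-0.15) in the SMAD4-expressing clones. The difference between the contrasts, tested as an interaction in edgeR, passed 0 of 17203 genes. Before adjustment 1346 (7.82%) were under 0.05, and after it the smallest value was 0.172. On the same counts DESeq2 called 30 and limma 1. For CDK1, CCNB1 and PLK1 the log2 difference was -0.03, -0.10 and -0.00 in the SMAD4-null clones against 0.42, 0.40 and 0.60 here, with interaction adjusted p of 0.626, 0.606 and 0.597 in edgeR. For SMC4, KIFC1 and KIF14 it was 0.41, 0.36 and 0.35.

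ARMCX3 and FBXO27 leaned the opposite way there. ARMCX3 differed by 0.46 on the log2 scale in the SMAD4-null clones (interaction adjusted p = 0.172 in edgeR) and FBXO27 by 0.71 (interaction adjusted p = 0.172 in edgeR), and both were picked for their low values in the SMAD4-expressing clones. FBXO27 had a rho with MKI67 of 0.89 over the 12 SMAD4-null libraries. ATP9A, PINK1 and MTHFD1 were near 0 there, at -0.03, -0.04 and 0.04. By list, interferon response genes were lower in 32 of 32 and NF-kB genes in 26 of 28 in the MKI67-high SMAD4-null clones (medians -1.57 and -0.91), where the SMAD4-expressing clones had medians of 0.01 and 0.18. No gene of either list passed the adjusted interaction test in edgeR. Before adjustment 15 of 33 interferon and 7 of 29 NF-kB genes were under 0.05 in it, where 7.82% of all genes were.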

How the data were processed

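RNA of 26 SCDCLs was sequenced. The authors mapped reads to the GRCh38 transcriptome with kallisto 0.46.1 and deposited 41078 genes with TPM, length-scaled estimated counts. The file headers name the columns as abundance and counts of kallisto. The TPM and estimated counts (expected counts) were taken as unnormalized between libraries. TPM set SMAD4 status (at least 1) and the MKI67 rank; 807 further columns (transcript lengths and resampled counts) were not used. Symbols and positions of 36315 genes came from GENCODE 44. No pair of libraries was identical.

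Counts were rounded, filtered with filterByExpr, scaled by TMM and fitted in edgeR 4.0.16 (R 4.3.3; quasi-likelihood, 10 libraries, Benjamini-Hochberg, threshold 0.05); DESeq2 1.42.0 and limma 3.58.1 were alternatives. SEs are the log2 difference over the root of F. Spearman's rho used log2(CPM + 1). Permutation tests used 100000 resamples in Python 3.11.15 with scipy 1.17.1. The MKI67 groups, the 22 lists (829 of 830 symbols matched) and the tests were chosen with earlier results of these data known. Named genes were the 3 largest differences per list with a mean of at least 10 CPM, 10 higher and 10 lower genes outside the cell cycle lists, the 10 highest and 10 lowest rhos, and fixed genes. The study gave no contrast by MKI67, and its comparison by gemcitabine response was not repeated. Some genes this rule selects are not reported here. The fit was tested on simulated data. Total counts were 27035700 to 32601400.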

Additional observations from a re-analysis of the deposited data

Results flagged for a closer look

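Library 22, which had the highest MKI67 of the SMAD4-expressing clones, also stood above the other 4 MKI67-high libraries by more than Dixon's 95% limit in TYMS (468 against 180 to 249.1 CPM), PCNA (243 against 126 to 154 CPM), NIP7 (86.3 against 47.2 to 53.8 CPM), GCLC (87.1 against 39.7 to 47.6 CPM) and EXOSC9 (37.8 against 27.4 to 30.4 CPM). Library 23 stood above them in COL12A1 (70.2 against 7.92 to 23.6 CPM), and library 8 in EGR1 (21.05 against 4.58 to 7.20 CPM) and HMGN5 (3.94 against 1.76 to 2.28 CPM). Library 8 lay below the other MKI67-high libraries in SMC4 (304 against 377 to 390 CPM) and in the number of genes with at least 5 counts (15976 against 16541 to 16661).

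Among the MKI67-low libraries, library 9 stood above the rest in PAQR5 (40.1 against 2.13 to 8.33 CPM) and PHGDH (318 against 37.1 to 106 CPM). Library 11 stood above them in SPARC (476 against 16.9 to 76.3 CPM) and FAM117B (17.2 against 7.06 to 9.22 CPM), and library 13 in IFITM1 (109.8 against 17.9 to 44.4 CPM) and SMAD4 (41.9 against 28.7 to 30.2 TPM). Library 17, which had the highest MKI67 of the low group and was its only library labelled BxPC3, stood highest in PPP1R15A (45.3 against 34.3 to 37.3 CPM) and F3 (39.6 against 7.08 to 11.1 CPM) and lowest in PCMTD1 (16.4 against 24.2 to 25.8 CPM). Library 14, with the lowest MKI67, stood lowest in KIFC1 (71.2 against 97.6 to 107 CPM). These are 20 of 238 groups of 5 values examined, and chance alone flags about 1 in 20 groups.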

How the results depend on the processing

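The count of genes at an adjusted p under 0.05 was 0 in edgeR and remained 0 under other scalings, without a filter, with only genes averaging 5 CPM or more, in limma, with 4 or 7 libraries a side, ranked by CPM and with the label as a term. It was 64 in DESeq2 (56 outside the cell cycle lists) and 52 with continuous MKI67 over 14 libraries (15 outside). The cause was not tested. Leaving out 1 library at a time gave 0 to 1 calls, overall and outside the lists, the 1 call coming without library 11, and counts at an unadjusted p under 0.05 ran from 926 to 1436. The count of cell cycle genes with a higher fitted level was 237 to 262 in every alternative (238 to 251 with 1 library left out). The interaction with the SMAD4-null contrast called 0 genes in edgeR, 30 in DESeq2, 1 in limma and 11 with continuous MKI67 over 26 libraries. Genes with a rho of at least 0.5 in size numbered 2199 over 14 libraries, 3861 over the 7 labelled BxPC3 and 4115 over the 7 labelled Panc-1, where fewer libraries make large rhos commoner. Continuous MKI67 fits, the fits within labels, the interaction alternatives and the fit without libraries 9 and 14 other than those planned were chosen after seeing the data. Of 113 named genes, 92 kept their direction throughout, and the log2 differences that turned were mostly of overlapping genes picked as the largest of a list. With 1 library left out it was -0.34 to 1.46 for FHL1 (turning without library 22), -0.69 to 1.43 for CCL2 (turning without library 22), -0.038 to 0.23 for PCNA (turning without library 22), -0.20 to 0.012 for CDKN1B (turning without library 20), -0.77 to 0.20 for F3 (turning without library 17), -0.67 to 0.0054 for ANGPTL4 (turning without library 13), -1.02 to 0.59 for EGR1 (turning without library 13) and -1.02 to 0.18 for FTH1 (turning without library 9). It turned to -0.26 for CCL2 and 0.12 for EGR1 in limma. It turned to 0.067 for F3 and -0.038 for CCL2 with 7 libraries a side. It turned to -0.0054 for H1-2, 0.44 for F3 and -0.60 for CCL2 ranked by MKI67 CPM. It turned to -0.097 for FHL1 and -0.52 for PTX3 with the label as a term. It turned to -0.055 for H1-2, -0.15 for HMGCS1, -0.33 for CCL2 and -0.89 for IFIT1 within the BxPC3 label. It turned to -0.084 for SLC2A1, 0.12 for NDUFB10, 0.029 for SPARC, -0.16 for COL12A1, -0.56 for FHL1, 0.81 for F3, -0.028 for DSG2, -1.63 for PTX3, 0.16 for EGR1, -0.0053 for GCLC, 0.0094 for MYC, -0.0077 for BRD3 and 0.20 for HMGN5 within the Panc-1 label. It turned to -0.030 for H1-2 without libraries 9 and 14. No paired analysis was possible because the groups share no replicate numbers. Depth was not varied.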

Other observations

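Beyond the cell cycle, single MKI67-high clones carried programs that the others did not share, given here as each library's median deviation of log2(CPM + 1) from the mean over the 14 libraries. Over 31 genes of cholesterol and fatty acid synthesis, library 22 lay at -0.94 and the other 4 MKI67-high libraries at -0.02 to 0.28, while the MKI67-low libraries ran from -0.44 to 0.41. SCD, for example, was at 533 CPM in library 22 and at 1679 to 2666 CPM in libraries 23, 20, 10 and 8. Library 22 was also the highest of the high group over MYC targets and ribosome biogenesis genes (0.34) and over oxidative stress and NRF2 targets (0.30).

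Library 9 was unlike the other MKI67-low clones. Its cell cycle genes lay at 0.02, the highest median of the low group although its MKI67 was the second lowest in TPM and the third lowest in CPM, and its ribosomal protein genes (0.44), oxidative stress and NRF2 targets (0.62) and amino acid stress genes (0.44) were the highest of the group. Library 14, with the lowest MKI67, had the lowest median of the 14 over mitotic genes (-0.59) and over DNA replication genes (-0.38). Among the middle libraries, library 18 had low histone transcripts (-0.84 over 21 genes) and high amino acid stress genes (0.68). These values were picked after they were seen and were not tested.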
